A study of Mus musculus with 4 samples.

Results

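The phosphofructokinase step of glycolysis was examined in Hepa1-6, a mouse hepatocellular carcinoma cell line, through 8 genes. These were the 3 subunit genes of phosphofructokinase-1 (Pfkl, Pfkm and Pfkp), the 4 genes of the bifunctional enzymes that make and break fructose-2,6-bisphosphate (Pfkfb1, Pfkfb2, Pfkfb3 and Pfkfb4), and Tigar, which encodes a phosphatase. They were taken by gene symbol from the 54838 gene rows of each library, and each symbol matched 1 row. The NC group holds 2 libraries of Hepa1-6 cells labelled wild type for Acvr2a, and the KO group holds 2 libraries of Hepa1-6 cells labelled Acvr2a knockout. The design text describes the knockout cells as subclones without saying if KO 1 and KO 2 came from different ones, and what the letters NC stand for is not given, so p-values measure the spread between these samples only. The title of the series ties the comparison to lactate production and a high rate of glycolysis.

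Phosphofructokinase-1 adds a phosphate to fructose 6-phosphate, the committing step of glycolysis, and works as a tetramer of liver-type (Pfkl), muscle-type (Pfkm) and platelet-type (Pfkp) subunits in varying mixtures. Fructose-2,6-bisphosphate is its strongest activator and at the same time restrains fructose-1,6-bisphosphatase, the opposing enzyme of gluconeogenesis. Each PFKFB protein carries a kinase that makes this regulator and a phosphatase that removes it, and the isoforms differ in the balance of these activities. TIGAR has a related phosphatase fold and lowers the flow through this step.

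The libraries held between 11597923 and 13910582 counts, with 2 libraries per group. For Acvr2a itself, an activin receptor gene, the NC libraries gave 81 and 108 counts and the KO libraries 75 and 97. The log2 difference, here and throughout KO minus NC from edgeR's quasi-likelihood test, was -0.21 with a standard error of 0.20 (adjusted p = 0.433). The amount of its RNA therefore did not set the libraries labelled KO apart, and gene totals cannot show an edit within the transcript. Of 10 hepatocyte and hepatoma markers, Alb, Afp, Trf, Hnf4a, Krt8 and Krt18 were well expressed, while Ttr and H19 had 3 counts or fewer in each library. Apoa1 and Apoa2 were low, at 17 to 39 and 15 to 19 counts a library. The markers of this list moved with the groups in both directions. Alb (0.41) and Trf (0.54) were higher and Afp (-1.21) and Hnf4a (-0.995) lower in KO past the threshold. The part of these markers in the results was not tested. Markers of leukocytes summed to between 0.71 and 1.93 TPM and those of skeletal muscle to between 0.75 and 1.49 TPM. Among stromal markers Dcn was high in every library, between 1031.86 and 1233.79 TPM, while Lrat was at 0 and Pdgfrb had at most 2 counts. The fourth, Col1a1, was higher in KO (2.73, adjusted p = 3.05e-05), from 6 and 5 counts for NC to 38 and 41 for KO, and its part in the results was not tested.

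In KO cells the platelet-type and muscle-type subunit genes were higher, and the liver-type gene, by far the most abundant, was not shown to differ. Pfkp rose 2.11-fold (95% interval 1.83 to 2.42) and Pfkm 1.45-fold (1.25 to 1.67). In such bulk RNA, a different number of cells that express a gene and a different amount of its RNA per cell cannot be told apart. Of the fructose-2,6-bisphosphate enzymes, Pfkfb4 rose 1.505-fold (1.075 to 2.11) with little margin. Pfkfb1, Pfkfb2, Pfkfb3 and Tigar did not pass the test. In all, 3 of 8 genes (37.5%) passed an adjusted p of 0.05, each of them higher in KO, where 37.9% of the 12510 genes tested passed in either direction and 19.7% passed as higher. The median log2 fold change was 0.21 over the 8 genes and -0.0037 over all genes tested. The share of these genes past the threshold was therefore close to that of all genes tested. In CPM, the counts scaled to a common library size, the groups did not overlap for 6 of the 8 genes, against 69.4% of all genes tested, and both KO libraries were above both NC libraries for 5 of them, against 34.8%.

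**Figure D1:**
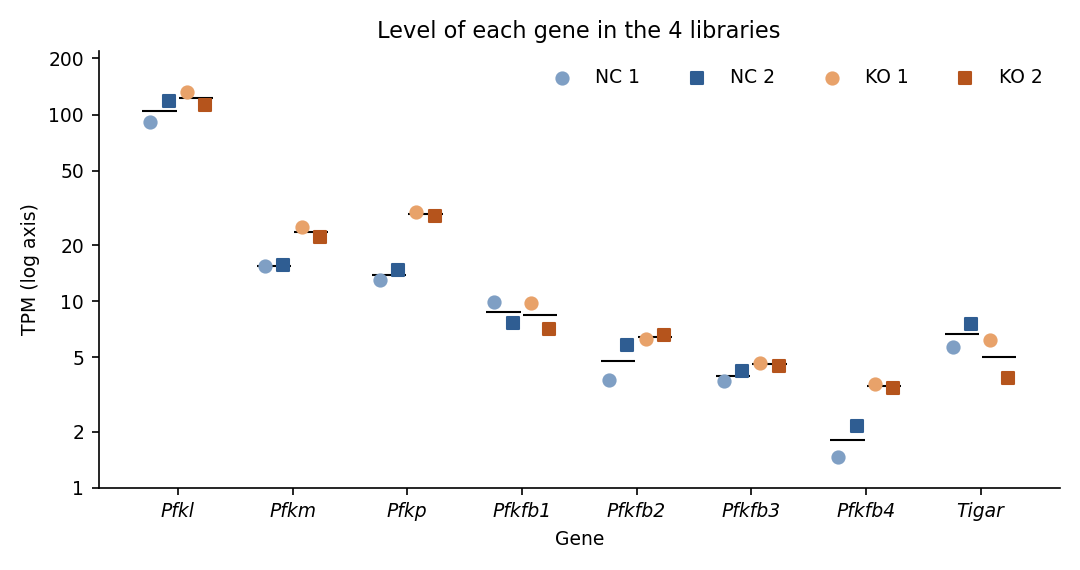
TPM of each gene in NC 1, NC 2, KO 1 and KO 2 on a log axis, with a black line at each group mean. Pfkp lies at 13.05 and 14.64 TPM for NC and at 30.22 and 28.46 TPM for KO, while the values of Pfkl, Pfkfb1 and Tigar overlap between the groups.

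Levels per length are given in TPM, the deposited transcript abundance scaled by length and depth, which allows different genes to be compared within a library. Pfkl had the highest level of the 8 genes in every library and Pfkfb4 the lowest. In NC the order after Pfkl was Pfkm at 15.5 ± 0.21 TPM (SD, n = 2) and Pfkp at 13.8 ± 1.12 TPM (SD, n = 2). In KO this pair changed places, with Pfkp at 29.3 ± 1.25 TPM and Pfkm at 23.5 ± 1.92 TPM (SD, n = 2). Pfkfb1 came next in both groups, at 8.76 ± 1.61 TPM in NC and 8.45 ± 1.94 TPM in KO (SD, n = 2). Tigar and Pfkfb2 followed, at 6.65 ± 1.33 against 4.80 ± 1.46 TPM in NC and 5.03 ± 1.62 against 6.41 ± 0.23 TPM in KO (SD, n = 2). Tigar was above Pfkfb2 in both NC libraries and below it in both KO libraries, though by little in KO 1 (6.17 against 6.25 TPM). Pfkfb3 and Pfkfb4 closed the order of the means, though in KO 2 Pfkfb3 was above Tigar (4.49 against 3.88 TPM). The means of Pfkfb2 and Pfkfb3 were within the spread of Pfkfb2 in NC. In CPM per kilobase of each gene's longest coding transcript this order differed. Tigar was then above Pfkfb2 in KO 1 as well (3.326 against 3.105), and Pfkfb3 was above Pfkfb2 in every library.

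Pfkl (ENSMUSG00000020277.10) encodes the liver-type subunit and lies on chromosome 10 at 77986947 to 78010083 on the minus strand of GRCm38, where no exon of another gene overlaps it. The NC libraries gave 3253 and 4028 counts and the KO libraries 4490 and 4135. Scaled to library size the NC values were 286.1 and 290.9 CPM, and those of KO 340.8 and 306.1 CPM. Both KO libraries thus lay above both NC libraries, KO 1 more than KO 2, but the log2 difference of 0.16, with a 95% interval of -0.02 to 0.35 (adjusted p = 0.161), did not pass. In TPM the groups overlapped, with 91.42 for NC 1, 118.90 for NC 2, 131.66 for KO 1 and 112.79 for KO 2. The lengths that enter the TPM differed between the libraries. The abundance-weighted transcript length of Pfkl was 3568.12 and 2974.34 bases for NC 1 and NC 2, against 3240.43 and 3253.75 for the KO libraries, where the main coding transcript has 3730 bases and the 7 other annotated ones between 492 and 2141. Measured against that fixed length, Pfkl stood at 76.7, 78.0, 91.4 and 82.1 CPM per kilobase, the KO libraries again above the NC libraries.

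Pfkm (ENSMUSG00000033065.14) encodes the muscle-type subunit (chromosome 15, 98092589 to 98132451, plus strand). Its level was 15.39 and 15.69 TPM in the NC libraries, against 24.85 and 22.14 TPM in those of KO. The groups were well apart, and KO 1 was the higher of the KO libraries. From 432 and 513 counts against 743 and 706, the log2 difference was 0.53 with a 95% interval of 0.33 to 0.74 (adjusted p = 0.000167). The weighted length stayed between 2859.92 and 2879.00 bases, close to the full coding transcript of 2879 bases. The 4 skeletal muscle markers summed to 0.75 and 1.47 TPM in the NC libraries and 1.49 and 0.81 TPM in the KO libraries. These sums overlap between the groups, Myog was at 0, and no marker had more than 13 counts in a library. The part of these markers in the Pfkm result was not tested. Exons of Senp1 on the opposite strand overlap those of Pfkm by 18 bases, and Senp1 was lower in KO (-0.42). On the same strand Gm26513 shares 341 exon bases with Pfkm, and it had at most 9 counts in a library.

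Pfkp (ENSMUSG00000021196.14) encodes the platelet-type subunit (chromosome 13, 6579768 to 6648777, minus strand). Its counts were 487 and 678 for the NC libraries, against 1270 and 1316 for those of KO, or 42.8 and 49.0 CPM against 96.4 and 97.4 CPM. The KO libraries were nearly equal and far above both NC libraries. The log2 difference was 1.08 with a 95% interval of 0.87 to 1.28 (adjusted p = 3.06e-09), the largest of the 8 genes. The weighted length ran from 3727.96 to 4041.93 bases, near the longest coding transcript of 4145 bases. Of 3 platelet and megakaryocyte markers Pf4 was at 0 and Gp9 had at most 1 count, while Itga2b was higher in KO (1.36, adjusted p = 0.00296). Summed, the 3 markers stood at 5.24 and 2.79 TPM for NC against 2.81 and 9.34 TPM for KO, which overlap, and their part in the Pfkp result was not tested. Pfkp shares 748 exon bases with Pitrm1 on the opposite strand, and although a directional kit was used, how strand was treated in counting is not given in the sources used here. For Pitrm1 the log2 difference was 0.21 (adjusted p = 0.0671). Fractions in all 4 expected counts of Pfkp show that some of its reads were shared with other genes. Pfkm had such fractions in NC 1 and KO 2 (431.53 and 705.69), and Pfkfb2 in NC 2 (192.07). With limma on log2(TPM + 1) and no filter on low values, which called 0 of 20640 genes, the adjusted p was 0.0754 for Pfkp and 0.101 for Pfkm, and every other alternative kept both calls.

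The promoter of Pfkp is shown because this gene changed most. It is the stretch of 250 bases before the RefSeq start, chr13:6648772-6649021 on GRCm38.p6, minus strand, written 5′ to 3′. Capitals mark GCGTG, which together with ACGTG forms the core letters of the hypoxia response element, searched on both strands. For Pfkm, which has 4 RefSeq starts, the stretch before the most upstream start is given, chr15:98092339-98092588 on the plus strand, where the capitals mark ACGTG on both strands within an E-box, CACGTG. For Pfkfb4, the other gene that passed, 29 bases around its single match are shown, chr9:108991773-108991801 on the plus strand.
Pfkp: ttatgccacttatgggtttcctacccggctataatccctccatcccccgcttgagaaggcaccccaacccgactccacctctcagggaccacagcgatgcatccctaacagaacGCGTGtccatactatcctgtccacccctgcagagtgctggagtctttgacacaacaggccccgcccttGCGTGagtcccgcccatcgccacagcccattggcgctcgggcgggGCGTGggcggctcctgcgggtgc
Pfkm: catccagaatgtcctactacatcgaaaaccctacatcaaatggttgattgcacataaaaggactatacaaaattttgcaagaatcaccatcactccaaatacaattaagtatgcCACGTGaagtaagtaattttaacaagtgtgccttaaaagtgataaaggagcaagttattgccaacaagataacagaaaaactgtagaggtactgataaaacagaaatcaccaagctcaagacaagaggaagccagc
Pfkfb4: ttgacggatgggGCGTGcttagtccaaaa
In the Pfkp stretch the 3 matches begin 136, 68 and 23 bases before the start, and that of Pfkfb4 begins 117 bases before its RefSeq start. In the GENCODE M21 annotation Pfkfb4 begins at 108991778, within the stretch shown, so by that annotation its match lies inside the gene. Windows of other genes, such as that of Pfkl (78009808 to 78010057), also lie inside the GENCODE gene. Over the 8 genes, 12 of 17 RefSeq starts had ACGTG or GCGTG in the 250 bases before them, against 38.6% of all 32851 promoters in the RefSeq table, and starts of the same gene can share sequence. All 3 genes that passed had a start with a match, and so did Pfkl, Pfkfb1, Pfkfb2 and Pfkfb3, which did not pass, while Tigar had none. The E-box CACGTG, which contains ACGTG, was found before 3 of the 17 starts and in 6.02% of all promoters, and GGGCGG, the GC box, before 7 of 17 and in 32.7%. These are matches of letters, not sites shown to be used.

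The make-up of the phosphofructokinase-1 RNA was then compared as each gene's share of the summed TPM of Pfkl, Pfkm and Pfkp. Protein, and so the make-up of the tetramer, was not measured in these libraries. Pfkl took 76.3% and 79.7% in the NC libraries but 70.5% and 69.0% in the KO libraries. Pfkp took 10.9% and 9.81% in the former, against 16.2% and 17.4% in the latter. The difference in share, KO minus NC, was therefore 6.45 percentage points for Pfkp and -8.20 points for Pfkl, with no overlap between the groups for either gene. The share of Pfkm, 12.8% and 10.5% against 13.3% and 13.6%, differed less: its difference of 1.75 points was 0.59 without NC 2 and 2.92 without NC 1. With 2 libraries per group the smallest p that an exact permutation test can give is 0.333 (two-sided), so that test cannot pass for a share and none was made. When counts were divided by the length of the longest coding transcript of each gene, a measure chosen after the data were seen, the difference was 7.26 points for Pfkp and -9.05 points for Pfkl.

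The summed level of the 3 subunit genes was 119.9 and 149.2 TPM for NC, against 186.7 and 163.4 TPM for KO. Both KO libraries were above both NC libraries, with a log2 ratio of the means of 0.38, and of 0.23 without NC 1. In TPM, Pfkl remained above Pfkm and Pfkp together in each library.

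**Figure D2:**
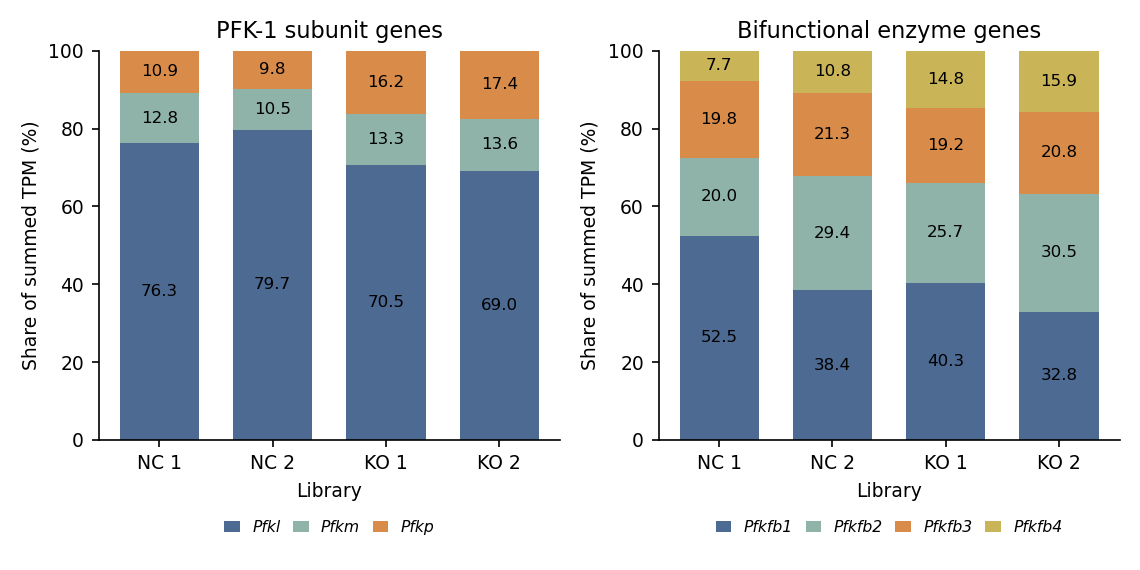
Share of summed TPM in each library for the 3 subunit genes of phosphofructokinase-1 (left) and the 4 PFKFB genes (right), with the percentage written in each part. The Pfkp part is 10.9% and 9.81% for NC and 16.2% and 17.4% for KO, and the Pfkfb4 part is 7.74% and 10.8% for NC and 14.8% and 15.9% for KO.

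Among the bifunctional enzymes, Pfkfb4 (ENSMUSG00000025648.18, chromosome 9, 108991778 to 109032228, plus strand), an isoform described in testis and in hypoxic tumour cells, was the least abundant and had the largest relative change. Its counts were low, 47 and 61 for NC against 73 and 99 for KO, or 4.13 and 4.41 CPM against 5.54 and 7.33 CPM. KO 2 was the highest library, and the groups did not overlap. The log2 difference of 0.59, with a standard error of 0.24, had an adjusted p of 0.0492. This call was lost without NC 1 (0.54, adjusted p = 0.158), without NC 2 (0.64, adjusted p = 0.0908) and without KO 2 (0.37, adjusted p = 0.421), with DESeq2 (adjusted p = 0.286) and with no filter on low counts (adjusted p = 0.0505). In TPM the level was 1.46 and 2.15 for NC against 3.60 and 3.42 for KO, a wider gap than in CPM, and the weighted length ran from 2026.31 bases in KO 1 to 3247.36 bases in NC 1.

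Pfkfb3 (ENSMUSG00000026773.19, chromosome 2, 11471433 to 11554077, minus strand), the isoform with the strongest excess of kinase over phosphatase activity and a known target of hypoxia-inducible factor, gave 180 and 223 counts for NC against 227 and 239 for KO. In CPM this was 15.8 and 16.1 against 17.2 and 17.7, groups that were close but did not overlap. The log2 difference of 0.13, with a 95% interval of -0.16 to 0.41 (adjusted p = 0.495), did not pass. The upper bound is 1.33-fold, below the lower bound of 1.83-fold for Pfkp.

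Pfkfb2 (ENSMUSG00000026409.14, chromosome 1, 130689182 to 130729253, minus strand), the heart-type isoform, showed a split between the NC libraries, with 108 and 192 counts against 181 and 195 for KO. NC 1 was low at 9.499 CPM, while NC 2 at 13.86 CPM was level with the KO libraries at 13.7 and 14.4 CPM. The log2 difference of 0.26 (adjusted p = 0.234) became 0.57 (adjusted p = 0.0325) without NC 2 and 0.017 without NC 1. Its exons share 1262 bases with Gm29427 on the same strand, which had 5 counts in all, and 154 bases with Yod1 on the other strand, which was higher in KO (0.47, adjusted p = 0.0234).

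Pfkfb1 (ENSMUSG00000025271.13, chromosome X, 150588229 to 150643878, plus strand), the liver isoform, gave 113 and 103 counts for NC against 117 and 90 for KO. The CPM values interleaved, at 9.94 and 7.44 against 8.88 and 6.66. Its log2 difference of -0.15, with a 95% interval of -0.56 to 0.26 (adjusted p = 0.584), was -0.37 without KO 1, and it turned to 0.056 without NC 1 and to 0.040 without KO 2. The weighted length of 1286.43 to 1334.07 bases was below 2 of its 3 coding transcripts, of 1739 and 1872 bases, so that a part of its reads was assigned to shorter transcripts.

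In shares of the summed TPM of the 4 genes, Pfkfb1 was the largest part of every library in TPM, at 52.5% and 38.4% for NC against 40.3% and 32.8% for KO. Its difference of -8.86 points was -15.9 without NC 2, -5.12 without KO 2 and -1.84 without NC 1. On counts per fixed length Pfkfb3 took 29.2% of KO 2 and Pfkfb1 28.2%. Pfkfb4 took 7.74% and 10.8% for NC against 14.8% and 15.9% for KO, 6.03 points more in KO and without overlap, though only 3.54 points more when counts not scaled by length were used. The shares of Pfkfb1, Pfkfb2 and Pfkfb3 overlapped between the groups. The sum itself was 18.9 and 19.8 TPM for NC against 24.35 and 21.6 TPM for KO, a log2 ratio of 0.25 that was 0.12 on counts per fixed length and 0.16 without KO 1.

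Tigar (ENSMUSG00000038028.9, chromosome 6, 127085116 to 127109557, minus strand) gave 150 and 183 counts for NC against 160 and 133 for KO. In CPM it stood at 13.2 in both NC libraries and at 12.1 and 9.85 in the others, lower in KO 2 than in KO 1. The log2 difference of -0.26, with a 95% interval of -0.59 to 0.06 (adjusted p = 0.201), did not pass. Tigar has 2 annotated transcripts, a coding one of 3651 bases and a nonsense-mediated decay one of 855 bases, so its weighted length gives the share of each. The coding share was 65.8% and 47.6% for NC 1 and NC 2, and 59.6% and 78.7% for KO 1 and KO 2. The spread within a group was as large as the distance between groups, and the samples did not separate. The coding transcript alone was at 3.76 and 3.61 TPM for NC against 3.68 and 3.05 TPM for KO, so 3 of the libraries were alike and KO 2 was lower. These shares are estimates by the authors' quantification from at most 183 counts, and the total of 7.59 TPM in NC 2 owed 3.98 TPM to the short transcript.

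**Figure D3:**
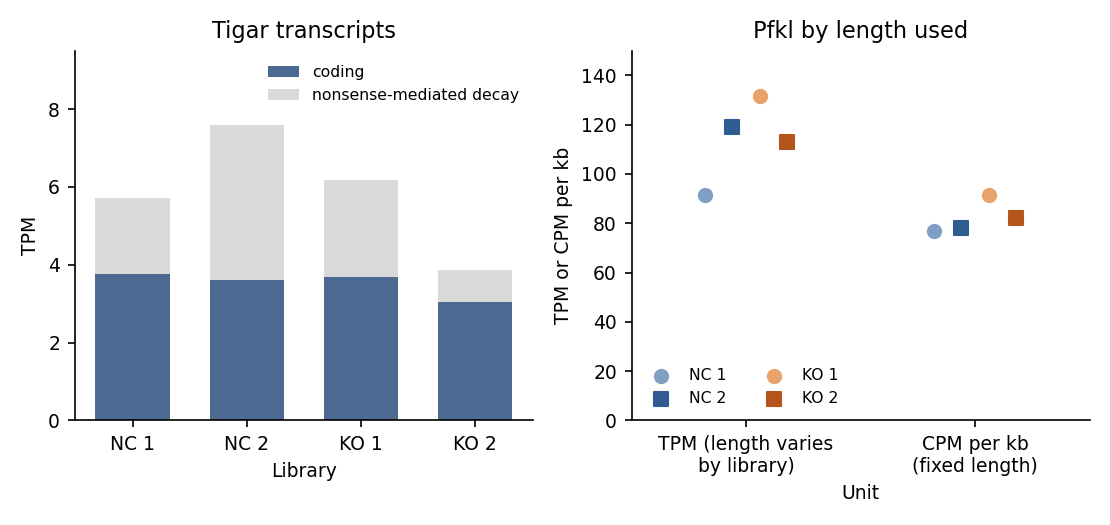
Left, TPM of the coding and the nonsense-mediated decay transcript of Tigar in each library; the coding part lies between 3.05 and 3.76 TPM. Right, Pfkl in TPM and in CPM per kilobase of its coding transcript: NC 1 and NC 2 are 91.42 and 118.90 in TPM but 76.7 and 78.0 with the fixed length.

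The other enzymes of glycolysis were taken from a list of 21 genes. Of all genes 37.9% passed, 19.7% as higher and 18.2% as lower. Of 17 tested genes of the list, 11 were higher and 1 lower past 0.05, with a median log2 difference of 0.36. The enzymes next to the phosphofructokinase step were among them. Gpi1, which supplies fructose 6-phosphate, was higher by a log2 difference of 0.43 (adjusted p = 0.000622). Its levels of 606.14 and 616.04 TPM for NC and 824.44 and 856.32 TPM for KO were separate. Of the aldolase genes, which act on the product, Aldoa was higher by 0.32 (adjusted p = 0.0117, and 0.108 without NC 2), and Aldoc by 1.49 (adjusted p = 7.08e-11). A further row with the symbol Aldoa, of at most 12 counts, was not tested. Further down the pathway Pgk1 (0.76) and Eno2 (0.88) were higher. Tpi1 (0.16), Pgam1 (0.11), Eno1 (0.013), Pklr (-0.049) and Ldha (0.050) did not pass. Eno1 was at 1440.29 to 1725.64 TPM, against 6.92 to 16.79 TPM for Eno2.

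**Figure D4:**
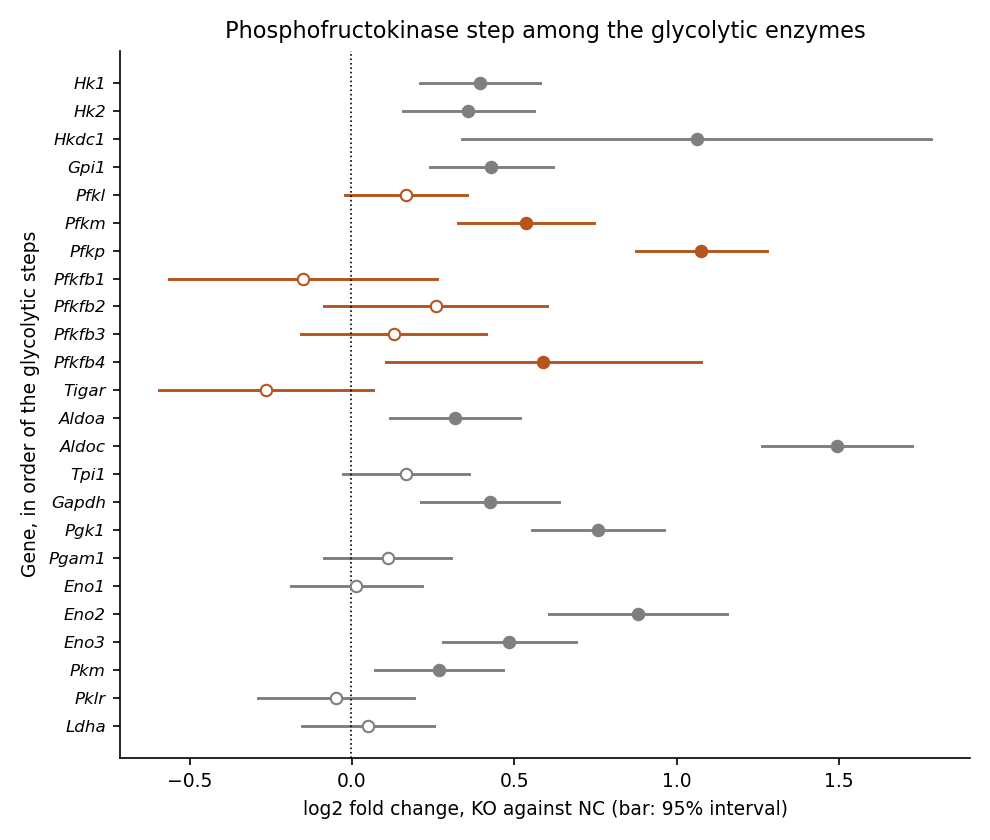
Log2 difference of KO against NC with its 95% interval for tested glycolytic enzymes, in order of the steps, with the phosphofructokinase and fructose-2,6-bisphosphate genes in orange; filled points passed an adjusted p of 0.05 and the dotted line is the median of all genes tested (-0.0037). Pfkp at 1.08 lies between Aldoc at 1.49 and Eno2 at 0.88, with Hkdc1 close to Pfkp at 1.06.

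No counts were found for the genes that run the reverse reaction. Fbp1 and Fbp2, the fructose-1,6-bisphosphatases, had 0 counts in all 4 libraries, and so did G6pc, a further gluconeogenic gene. A count of 0 allows at most 3 counts or between 0.217 and 0.264 CPM for each gene and library. The related G6pc3 had 945 to 1302 counts a library and did not pass (-0.18, adjusted p = 0.151). In the list of 8 gluconeogenic genes, 4 were tested and 2 passed, where 37.9% of all genes did. Pcx, pyruvate carboxylase, was higher (0.78) and Pck2, the mitochondrial PEP carboxykinase, was lower (-0.48). In the pentose phosphate pathway, to which sugar phosphate can turn when this step is slow, 1 of 8 tested genes was higher and 3 were lower, with a median of -0.019, where 19.7% of all genes were higher and 18.2% lower. H6pd was higher (0.41), and Rpia (-0.55), Taldo1 (-0.32) and Tkt (-0.26) were lower. Without KO 2, Taldo1 was at -0.18 (adjusted p = 0.204) and Tkt at -0.15 (adjusted p = 0.293), and without NC 1 they were at -0.31 (adjusted p = 0.0508) and -0.24 (adjusted p = 0.130). Tkt also lost its call without NC 2 (adjusted p = 0.0624).

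Known regulators of the 8 genes and their products were read against the same shares, 37.9% of all genes past the threshold, 19.7% higher and 18.2% lower. Of 11 tested genes for protein kinases that act on phosphofructokinase-1 or PFKFB proteins, 2 were higher and 1 lower, with a median of 0.060. Akt1 was lower (-0.53, adjusted p = 4.20e-05), while Prkab2, a subunit of AMP-activated kinase, rose by 0.81 and Pdpk1 by 0.44. Of 9 transcription factor genes 3 were higher and 2 lower, with a median of 0.084. Mlxipl, which encodes the glucose-sensing factor ChREBP, rose from 2.32 and 1.99 TPM to 15.38 and 15.39 TPM, a log2 difference of 2.45 (adjusted p = 3.00e-12). Its partner Mlx was lower (-0.34, adjusted p = 0.0153), a call that did not hold without NC 2 (adjusted p = 0.0583) or without KO 2 (adjusted p = 0.134). Klf4 was higher (0.61). Hif1a, at -0.11 (adjusted p = 0.381), did not pass. Nor did Epas1, at 0.25 (adjusted p = 0.0666), though its CPM did not overlap between the groups. Of 4 genes for ubiquitin ligases known to act on phosphofructokinase-1 or PFKFB3, Tnfaip3 (0.53) and Btrc (0.34) were higher, and Btrc did not pass without NC 1 (adjusted p = 0.0742).

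The tested genes whose pattern over the 4 libraries was most like that of a member were found by the root mean square difference of centred log2 CPM. For Pfkp these were Plat (0.014), Pcyt1b (0.020) and Crocc (0.020), with log2 differences of 1.08, 1.07 and 1.11. For Pfkm they were Cda (0.016), Tbc1d9b (0.018) and Pidd1 (0.018), and for Pfkfb4 Mdm4 (0.022), C2 (0.028) and Ago3 (0.030). With 4 libraries, this measure rests mainly on a fold change of like size.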

How the data were processed

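RNA was extracted with TRIzol and made into directional libraries, per the labels' protocols. The submitters' processing notes name FastQC, STAR, RSEM and DESeq2 and the builds GRCm38 and mm10, without versions. The deposited expected counts are the authors' estimated counts per gene, not normalised. The deposited TPM and FPKM values are scaled by length and depth. The deposited length columns, in other units (bases), were read as RSEM's lengths, which weight each gene's transcripts by estimated abundance. Lengths were compared with GENCODE M21 (GRCm38) for 33767 genes, matched by versioned identifier and with a single transcript in both sources. All of these were equal. GENCODE M21 was used for coordinates and transcripts, and promoters are from RefSeq (GRCm38.p6).

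Expected counts were rounded, genes kept with filterByExpr (12510), scaled with TMM and tested with edgeR 4.0.16 (quasi-likelihood, group as the only term, R 4.3.3), with Benjamini-Hochberg adjustment over all genes and a threshold of 0.05. The fit was tested on simulated data. Shares and sums used TPM. Alternatives were DESeq2 1.42.0, limma 3.58.1 on log2(TPM + 0.1) or log2(TPM + 1), other scalings, no filter, a robust fit, a replicate block and each library left out.

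The genes and lists were chosen with earlier results of these data known. Named are all 8 genes, Acvr2a, up to 4 genes per list with the lowest p past 0.05, genes next to this step, and the 3 closest patterns per gene that passed. Overlapping genes, markers, Hif1a, Epas1, G6pc, G6pc3, Hkdc1 and the glycolytic genes that did not pass are named outside that rule. Intervals and floors cover counting error and the spread of these libraries only. Protein sequences were not used here. Some genes of the lists that this rule names are not reported here.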

Additional observations from a re-analysis of the deposited data

How the results depend on the processing

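Pfkfb1 to Pfkfb4 and Tigar rest on at most 239 counts a library, and 2 libraries per group limit the precision. The 4741 calls (51.9% higher) became 2866 with DESeq2, 2099 and 2158 with limma on log2(TPM + 0.1) and log2(TPM + 1) (68.0% higher in both), and 0 on unfiltered log2(TPM + 1), where 4506 genes had an unadjusted p under 0.05; the cause was not tested. In that last fit the 8 genes and each of the 6 lists also had 0 calls. In both filtered TPM fits 7 glycolytic, 1 gluconeogenic, 0 pentose phosphate, 1 kinase, 3 transcription factor and 1 ubiquitin ligase gene passed, and with DESeq2 3 transcription factor genes and 1 ubiquitin ligase gene. Leaving out 1 library gave 3507 to 4488 calls, 2 to 3 among the 8 genes, 9 to 11 glycolytic, 2 to 4 pentose phosphate (2 without NC 1 or KO 2), 3 to 4 kinase, 3 to 7 transcription factor (3 without KO 2) and 1 to 2 ubiquitin ligase genes (1 without NC 1), with 2 gluconeogenic genes throughout. Share differences in points then ran from -9.91 to -6.50 for Pfkl, 0.589 to 2.92 for Pfkm, 5.83 to 7.07 for Pfkp, -15.9 to -1.84 for Pfkfb1, -1.33 to 8.09 for Pfkfb2, -1.36 to 0.25 for Pfkfb3 and 4.48 to 7.59 for Pfkfb4. Pfkfb2 was reversed to -1.33 without NC 1, and Pfkfb3 (main difference -0.55) to 0.20 without NC 2, 0.25 without KO 1 and 0.28 on counts per fixed length. The log2 ratio of the sums ran from 0.23 to 0.55 for phosphofructokinase-1 and from 0.16 to 0.33 for PFKFB, and the latter was 0.12 on counts per fixed length. On unscaled counts the Pfkp share difference was 8.13 and that of Pfkfb4 3.54 points. The Pfkfb1 log2 difference ran from -0.37 to 0.056 and was reversed without NC 1 (0.056) and without KO 2 (0.040). The titles give both groups the numbers 1 and 2, but libraries with the same number did not deviate together (correlation -0.012), and a replicate block moved the calls to 5006, 3 of them among the 8 genes, and changed no call of a gene named by the rule. Where 1 library is left in a group it is assumed to vary like the other group.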
